A study of Mus musculus with 6 samples.

Results

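The 8 troponin genes of the mouse were followed through the maturation of the gastrocnemius, a mixed calf muscle that is mostly fast-twitch in the adult. They are Tnnt1, Tnnt2 and Tnnt3 for troponin T, Tnni1, Tnni2 and Tnni3 for troponin I, and Tnnc1 and Tnnc2 for troponin C, taken by gene symbol from the 23367 gene entries of the table, and all 8 passed the filter on low counts. The samples were polyadenylated RNA from FVB wild-type animals, in 6 libraries at 5 stages, to describe how the muscle transcriptome changes from late gestation to the adult. The stages were embryonic day 18.5 (E18.5, RNA of several pooled male and female mice), postnatal day 2 (PN2, pooled males), PN14 (replicates 1 and 2, 1 male each), PN28 (1 male) and adult (1 male of 22 weeks). No mouse carried a transgene, a deletion or a treatment.

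Troponin is the calcium switch of the thin filament of striated muscle. Troponin C binds calcium, troponin I holds the filament off when calcium is low, and troponin T ties the complex to tropomyosin. Each subunit is made from separate slow-fibre and fast-fibre genes, and the heart has its own genes for troponin T and troponin I. Tnnt1, Tnni1 and Tnnc1 are the slow-fibre genes, of which Tnnc1 is also the troponin C gene of the heart. Tnnt3, Tnni2 and Tnnc2 are the fast-fibre genes. Tnnt2 and Tnni3 encode cardiac troponin T and cardiac troponin I, and cardiac troponin T is known to be made for a time in developing skeletal muscle.

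The genes of 1 subunit are related in sequence, so the stretch of 75 coding bases most alike among the genes of each subunit is given, to show how far reads of the isoforms can be told apart. Capitals mark bases shared by all genes of the subunit, and lower case marks bases that differ in at least 1 of them. For troponin T, 52 of the 75 bases were shared, in stretches from coding base 268 of Tnnt1, 289 of Tnnt3 and 391 of Tnnt2, counted from 1 at the start codon.
Tnnt1: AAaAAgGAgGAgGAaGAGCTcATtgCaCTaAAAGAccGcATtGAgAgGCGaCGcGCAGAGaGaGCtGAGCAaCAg
Tnnt3: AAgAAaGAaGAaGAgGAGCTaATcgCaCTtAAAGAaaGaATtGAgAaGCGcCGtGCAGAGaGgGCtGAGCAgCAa
Tnnt2: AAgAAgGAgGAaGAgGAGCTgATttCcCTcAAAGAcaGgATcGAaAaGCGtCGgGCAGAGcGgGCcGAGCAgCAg
For troponin I, 51 of the 75 were shared, from coding base 382 of Tnni1, 379 of Tnni2 and 478 of Tnni3.
Tnni1: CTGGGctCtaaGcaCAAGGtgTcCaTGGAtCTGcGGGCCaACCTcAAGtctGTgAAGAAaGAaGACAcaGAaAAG
Tnni2: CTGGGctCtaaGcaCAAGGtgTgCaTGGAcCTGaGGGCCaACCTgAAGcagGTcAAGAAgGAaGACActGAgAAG
Tnni3: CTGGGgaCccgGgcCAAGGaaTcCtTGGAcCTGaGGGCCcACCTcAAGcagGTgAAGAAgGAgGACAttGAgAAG
For troponin C, 60 of the 75 were shared, from coding base 388 of Tnnc1 and 385 of Tnnc2.
Tnnc1: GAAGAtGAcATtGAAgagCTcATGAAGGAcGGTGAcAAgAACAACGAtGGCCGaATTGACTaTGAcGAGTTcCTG
Tnnc2: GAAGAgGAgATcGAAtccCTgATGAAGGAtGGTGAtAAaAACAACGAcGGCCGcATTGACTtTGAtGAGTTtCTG
Over whole coding sequences in mm9 with the GENCODE M1 annotation, identity within a subunit ran from 54.7% (Tnni1 and Tnni3) to 68.8% (Tnnc1 and Tnnc2). No run of 30 bases was shared between the annotated transcripts of any pair of the 8 genes, and the longest shared run was 22 bases, in Tnni1 and Tnni2.

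Total expected counts lay between 125402932 and 157868359 per library, and troponin took a growing part of them. The 8 genes held 1.17% of all counts in the E18.5 library and 1.29% in that of PN2, against 3.88% and 3.27% for PN14, 4.69% for PN28 and 5.16% for the adult. Only PN14 was replicated, so every test borrows its spread from that pair and from the other genes. The column headers place each library on a lane of its own, so lane and stage cannot be told apart. Fewer fibres of a type and less RNA per fibre cannot be told apart in whole muscle either.

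Levels are given first, in FPKM, the authors' value of fragments per kilobase of transcript scaled to library size alone. The 3 fast genes were the most abundant at every stage and were all higher after PN2. Tnnt3, fast troponin T, stood at 4094 FPKM at E18.5, 4617 at PN2, 18302 (replicate 1) and 14342 (replicate 2) at PN14, 23400 at PN28 and 27016 in adult muscle. Tnnc2, fast troponin C, stood at 5188, 6774, 17796, 16569, 22190 and 23191 FPKM in the same order of libraries. Tnni2, fast troponin I, stood at 3438, 3858, 13166, 11172, 15184 and 16042 FPKM. In each of the 3 genes both PN14 libraries lay above E18.5 and PN2 and below PN28 and the adult. In the adult, Tnnt3 ranked 2nd, Tnnc2 ranked 3rd and Tnni2 ranked 7th among all entries by FPKM.

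The slow genes were lower at PN28 and in the adult than at any earlier stage, and they did not move in step. Tnni1, slow troponin I, stood at 812 FPKM at E18.5, 524 at PN2, 415 and 353 for PN14, 117 at PN28 and 87.8 in adult muscle. Tnnt1, slow troponin T, stood at 622, 527, 658, 544, 282 and 209 FPKM in that order. Tnnc1, the troponin C of slow fibres and heart, stood at 526, 449, 523, 413, 167 and 173 FPKM. On this scale Tnni1 was lower at each later stage, whereas PN14 stood near the earlier stages for the other slow genes. For Tnnt1, PN14 replicate 1 lay above both earlier libraries and replicate 2 between them, and for Tnnc1 replicate 1 lay between them and replicate 2 below both. Scaled by TMM, both PN14 libraries lay above E18.5 and PN2 for Tnnt1 and Tnnc1. The highest library exceeded the lowest 9.24-fold for Tnni1 and 3.15-fold for both Tnnt1 and Tnnc1.

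Cardiac troponin T had the widest range of the 8 genes. Tnnt2 stood at 314 FPKM at E18.5 and 222 at PN2, then at 9.79 and 15.8 for the PN14 pair, 7.80 at PN28 and 3.06 in adult muscle, a 103-fold range over libraries. Its expected counts over the same libraries were 57098, 39974, 1405, 2714, 1324 and 497. Cardiac troponin I stayed low: Tnni3 stood at 0.55, 1.12, 1.28, 2.42, 0.59 and 0.71 FPKM, with 67 to 280 counts per library, and it was highest in PN14 replicate 2. The 2 cardiac genes therefore differed in both level and course.

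**Figure D1:**
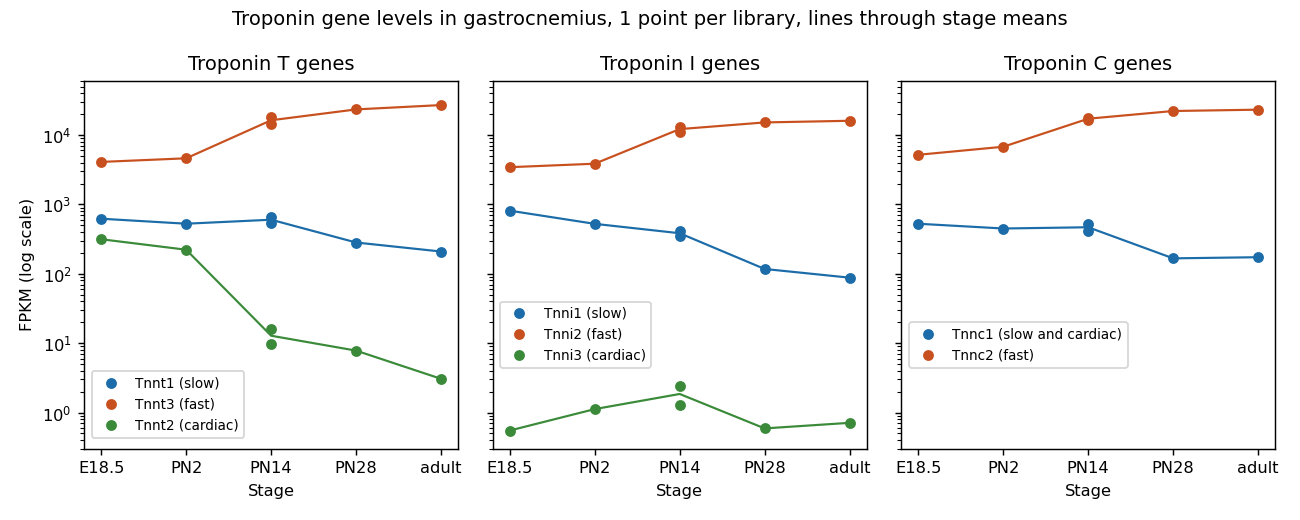
FPKM of the 8 troponin genes (log axis) against stage, 1 panel for each subunit, with a point for each library and lines through the stage means (PN14 is the mean of 2 libraries, the other stages are 1 library). The fast genes climb between PN2 and PN14, the slow genes drop after PN14, Tnnt2 drops from 222 FPKM at PN2 to 9.79 and 15.8 at PN14, and Tnni3 stays at or under 2.42.

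The PN14 replicates give the only measure of spread, and neighbouring stages were set against it. The replicates differed in FPKM by a factor of 1.21 for Tnnt1, 1.61 for Tnnt2, 1.28 for Tnnt3, 1.17 for Tnni1, 1.18 for Tnni2, 1.89 for Tnni3, 1.27 for Tnnc1 and 1.07 for Tnnc2. In FPKM, between E18.5 and PN2, only Tnni1 (1.55), Tnni3 (2.04) and Tnnc2 (1.31) differed by more than their own factor. Between PN2 and the PN14 mean, Tnnt1 (1.14), Tnnc1 (1.04) and Tnni3 (1.65) did not exceed it, and the other 5 genes did. From PN14 to PN28 all 8 exceeded it, though narrowly for Tnnt2 (1.64 against 1.61). Between PN28 and the adult only Tnnt1 (1.35), Tnnt2 (2.55) and Tnni1 (1.33) did, while the 3 fast genes, Tnnc1 and Tnni3 did not differ beyond the PN14 spread.

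Shares within a subunit compare isoforms in the same library, so they do not depend on how libraries are scaled. The slow isoform held between 9.20% and 19.1% of its subunit at E18.5 and under 0.8% in the adult. Slow Tnnt1 made up 12.4% of troponin T FPKM at E18.5, 9.81% at PN2, 3.47% and 3.65% for the PN14 pair, 1.19% at PN28 and 0.768% in adult muscle. Slow Tnni1 made up 19.1%, 11.96%, 3.05%, 3.06%, 0.766% and 0.545% of troponin I in the same order. Slow Tnnc1 made up 9.20%, 6.22%, 2.86%, 2.43%, 0.746% and 0.741% of troponin C. The slow share in the adult minus that at E18.5 was -18.6 percentage points for troponin I, -11.6 for troponin T and -8.46 for troponin C. The fast share in the adult was 99.5% for troponin I, 99.2% for troponin T and 99.3% for troponin C.

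Cardiac Tnnt2 was a minor part of troponin T before PN14 and almost none after. Its share was 6.25% at E18.5 and 4.14% at PN2, then 0.0516% and 0.106% for the PN14 pair, 0.0329% at PN28 and 0.0112% in adult muscle. Tnni3 never passed 0.0256% of troponin I.

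**Figure D2:**
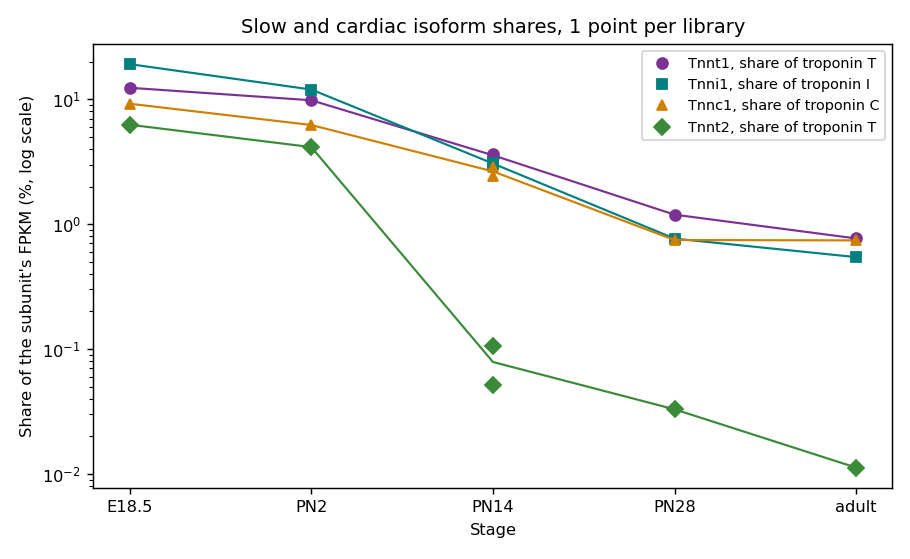
Share of the subunit's summed FPKM (percent, log axis) held by slow Tnnt1, Tnni1 and Tnnc1 and by cardiac Tnnt2 against stage, with a point for each library and lines through stage means. The slow shares start between 9.20% and 19.1%, converge near 3% at PN14 and end under 0.8% in the adult, and Tnnt2 drops from 4.14% at PN2 to 0.0516% and 0.106% at PN14.

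The ratio of the fast to the slow isoform was higher at each later stage in all 3 subunits, with the widest range in troponin I. For troponin T it was 6.59 at E18.5, 8.77 at PN2, 27.8 and 26.3 for the PN14 pair, 82.9 at PN28 and 129 in adult muscle. For troponin I it was 4.24, 7.36, 31.8, 31.6, 129 and 183. For troponin C it was 9.86, 15.1, 34.0, 40.1, 133 and 134. Troponin I thus began with the lowest ratio and ended with the highest. Over the whole course the ratio multiplied 43.1-fold for troponin I, 19.6-fold for troponin T and 13.6-fold for troponin C.

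For troponin T and troponin I this ratio took steps of like size before and after PN14. From PN2 to PN14 it multiplied 3.09-fold for troponin T, 4.31-fold for troponin I and 2.45-fold for troponin C, and from PN14 to PN28 it did so 3.06-fold, 4.09-fold and 3.60-fold. The PN14 replicates differed in the log2 ratio by 0.08, 0.01 and 0.24 respectively, far less than these steps. From PN28 to the adult the ratio of troponin C was 1.01-fold, within the difference of that pair, while troponin T reached 1.56-fold and troponin I 1.41-fold. These are descriptions, and no test of the ratio was run.

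The slow genes also changed against each other. Tnnt1 over Tnni1 was 0.766 at E18.5, 1.004 at PN2, 1.59 and 1.54 for the PN14 pair, 2.41 at PN28 and 2.38 in adult muscle. Tnni1 over Tnnc1 was 1.54, 1.17, 0.792, 0.856, 0.703 and 0.507. Slow troponin I was therefore the most abundant slow gene at E18.5 and the least abundant from PN14 on.

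Summed over isoforms, all 3 subunits were several-fold higher in the adult than at E18.5, and troponin T had gained on the other two. Troponin T totalled 5030 FPKM at E18.5, 5366 at PN2, 18970 and 14902 for the PN14 pair, 23690 at PN28 and 27228 in adult muscle. Troponin I went from 4250 to 16131 FPKM and troponin C from 5714 to 23364 between E18.5 and the adult. Troponin T over troponin C was 0.880, 0.743, 1.04, 0.878, 1.06 and 1.17 over the libraries, so PN14 replicate 2 lay at the E18.5 value and replicate 1 near PN28. Troponin I over troponin C stayed between 0.607 and 0.744 in all 6 libraries. The assembled complex holds 1 copy of each subunit, but RNA levels per length do not measure protein.

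**Figure D3:**
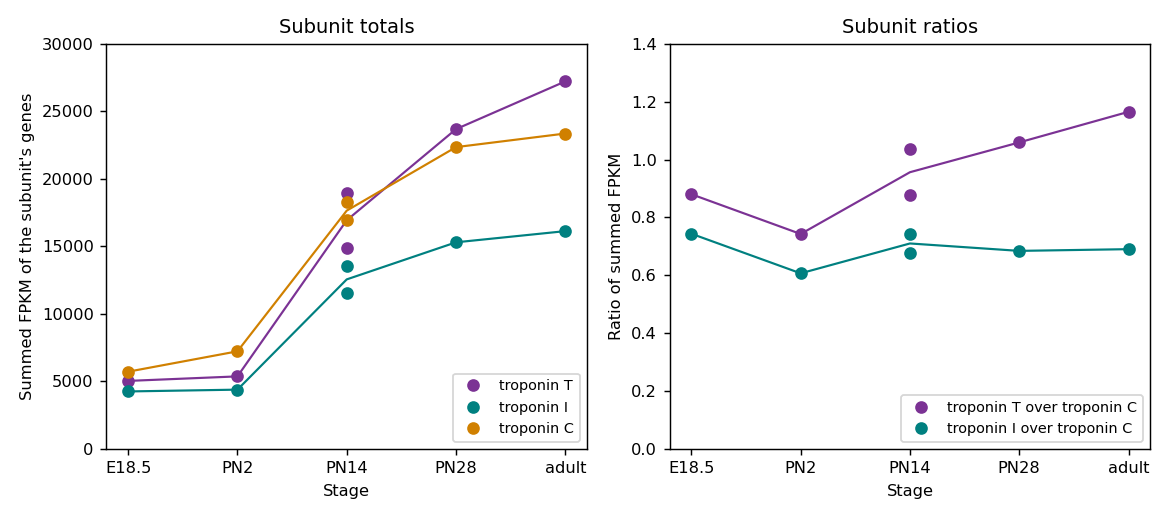
Left, summed FPKM of the troponin T, I and C genes against stage; right, ratios of the troponin T and troponin I totals to the troponin C total; points are libraries and lines join stage means. Troponin T over troponin C ends highest, at 1.17 in the adult, and troponin I over troponin C stays between 0.607 and 0.744.

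Between-stage tests were run across all genes with edgeR's quasi-likelihood test, and genes counted as called had to pass both an adjusted p of 0.05 (Benjamini-Hochberg) and a log2 difference of 1 in either direction. From PN2 to PN14, Tnnt2 fell by 3.49 on the log2 scale (SE 0.23, adjusted p = 0.00301) and was the 1 troponin gene of 8 called, against 23% of the 16882 genes tested. The fast genes had large estimates with wide errors in this interval and were not called: 2.46 for Tnnt3 (SE 1.39, adjusted p = 0.217), 2.33 for Tnni2 (SE 0.98, adjusted p = 0.118) and 2.01 for Tnnc2 (SE 1.12, adjusted p = 0.210). Scaled by library size alone, as FPKM is, Tnnt3, Tnni2, Tnnc2 and Tnnt2 were called, with estimates of 1.78, 1.66, 1.34 and -4.12, against 34.5% of all genes. That scaling moved the median of all genes from -0.01 to -0.66, so the estimate of each fast gene lay above that of the median gene under both scalings, and it passed the threshold under library size alone. The slow genes were not called under either scaling, and the estimate of Tnni1 was 0.23 under TMM but -0.45 by library size, so its direction in this interval depends on the scaling.

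From E18.5 to the adult, 3 of the 8 genes were called, against 44.9% of all genes tested. Tnnt2 fell by 5.67 (SE 0.34, adjusted p = 0.00113) and Tnni1 fell by 2.18 (SE 0.40, adjusted p = 0.00634), and Tnni2 rose by 3.25 (SE 1.09, adjusted p = 0.0471), all in edgeR's test on the log2 scale. Tnnt3 (3.71, SE 1.57, adjusted p = 0.0911) and Tnnc2 (3.19, SE 1.26, adjusted p = 0.0768) had estimates above and just below that of Tnni2, with larger standard errors, and missed the threshold. Tnnt1 (-0.54, adjusted p = 0.304) and Tnnc1 (-0.58, adjusted p = 0.239) were not called with TMM, but with library size alone they were, at -1.57 and -1.60, against a median gene at -1.08. Under that scaling 7 of the 8 genes were called, against 53.6% of all genes. Tnni3 had an estimate of 1.39 (adjusted p = 0.0690) on 67 to 280 counts per library.

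The other intervals gave no call among the 8 genes in edgeR's quasi-likelihood test with TMM. From E18.5 to PN2 the share of all genes called was 0.0296%, and no other test called a troponin gene either. From PN14 to PN28 it was 0.0178%, and Tnni1 (-1.50, adjusted p = 0.450) and Tnnc1 (-1.28, adjusted p = 0.497) had unadjusted p-values of 0.00584 and 0.0105. Library size alone and DESeq2 called both of them (1.55% and 0.8% of all genes called), and edgeR's exact test called Tnni1 (1.32%). From PN28 to the adult it was 0.521%, and Tnnt2 had an estimate of -1.22 (adjusted p = 0.113). It was called with library size alone (5.14% of all genes called), by DESeq2 (4.84%), by edgeR's exact test (6.53%) and with no filter on low counts (4.26%). The numbers of all genes at an unadjusted p under 0.05 in these 3 intervals were 1121, 1420 and 3091.

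**Figure D4:**
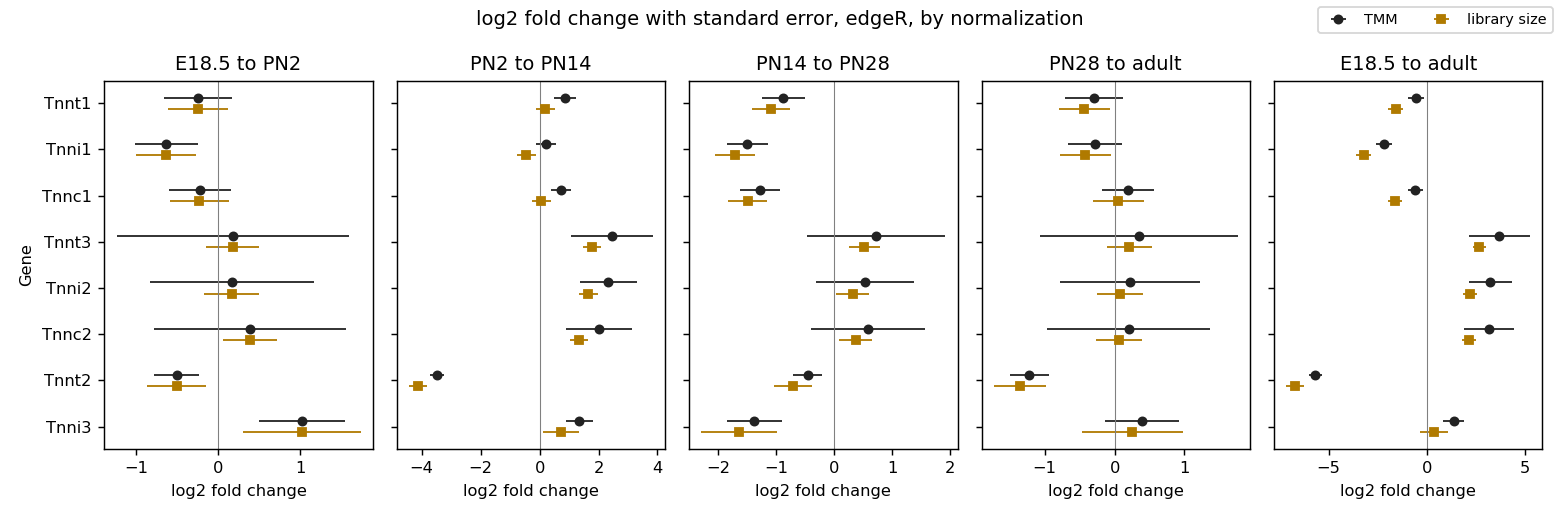
log2 fold change with its standard error (bars) for each troponin gene in the 5 comparisons, from edgeR with TMM normalization (circles) and with library size alone (squares); each panel has its own horizontal scale. Library size alone shifts estimates to the left after PN2 and gives the fast genes narrower bars; Tnnt2 stands lowest in PN2 to PN14 and in E18.5 to adult under both.

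Heart tissue was considered beside the cardiac genes. The calls given here are from E18.5 to the adult, where 44.9% of all genes were called with TMM and 53.6% with library size alone. Of 6 defining heart markers, Myh6 (cardiac alpha-myosin) was present at 25.5, 28.2, 51.3, 45.7, 16.2 and 13.1 FPKM, and the other 5 (Nppa, Myl7, Nkx2-5, Gata4 and Tbx20) were at or under 0.33 FPKM in every library. Of those 6, 4 passed the filter, and Gata4 (at most 0.12 FPKM) fell from E18.5 to the adult, as did Myl7 with library size alone. Of the longer list of 12 heart genes, 9 were tested: Gata4, Ryr2 and Tbx5 fell and Hcn4 and Myl2 rose with TMM. Myl2 and Myl3, which slow fibres also express, made up most of the list's summed level, which was 593, 825, 2105, 1578, 790 and 677 FPKM. Myh6 was highest at PN14, where Tnnt2 had already dropped. Slow myosin Myh7 was also highest there, at 207, 220, 403, 363, 137 and 115 FPKM over the libraries. The source of the Myh6 reads was not tested. Muscle precursor markers were also highest in the libraries where Tnnt2 was high: the summed FPKM of 6 satellite cell and myoblast genes was 128 at E18.5, 108 at PN2, 37.3 and 50.6 for the PN14 pair, 33.0 at PN28 and 24.5 in adult muscle, and 5 of the 6 fell from E18.5 to the adult. The 6 erythroid genes summed to 8936 FPKM at E18.5 and 393 in the adult, and all 6 fell. The 6 smooth muscle genes summed to 386 and 76.9 FPKM, of which Acta2 and Cnn1 fell and Lmod1 rose with TMM. With TMM the calls among the 9 tested heart genes and the 6 smooth muscle genes were near the share of all genes. The part of these cells in the troponin values was not tested. Of 6 skeletal muscle genes, Acta1 and Ckm (muscle creatine kinase) stood at 11979 FPKM or more and 4189 FPKM or more in every library. The others varied with stage: Myh4, Ryr1 and Cacna1s were lowest at E18.5 (43.9, 55.8 and 35.7 FPKM) and rose to the adult, and Myog, a factor of differentiating muscle cells, fell from 210 to 4.34 FPKM.

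Other genes of the slow and fast programmes were read from lists, beside the 44.9% of all genes called from E18.5 to the adult (53.6% with library size alone). Of 10 fast-fibre genes, 7 rose from E18.5 to the adult and none fell, with a median log2 fold change of 5.28, among them Actn3 (6.51, adjusted p = 0.00523 in edgeR), the fast alpha-actinin, and Pvalb (8.68, adjusted p = 0.00775), the cytosolic calcium buffer parvalbumin. Of 10 slow-fibre genes, 4 fell (Casq2, Csrp3, Myh7b and Myoz2) and Myl2 rose, with a median of -0.14; with library size alone 5 fell, none rose and the median was -1.16. The 5 of 10 called under either scaling are near the share of all genes. All 6 embryonic and neonatal muscle genes fell from E18.5 to the adult, with a median of -8.10 against -0.05 over all genes tested. From PN2 to PN14, 5 of them had already fallen, as Tnnt2 did. In that interval 23% of all genes were called with TMM and 34.5% with library size alone. Embryonic myosin Myh3, for example, stood at 1252 FPKM at E18.5, 508 at PN2, 10.9 and 26.2 for the PN14 pair, 1.41 at PN28 and 0.35 in adult muscle.

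In other sarcomere families, the shares of slow Myh7, of Tpm3 and of cardiac Actc1 were lower in the adult than at E18.5, by different amounts. Slow myosin Myh7 made up 5.02%, 4.35%, 4.20%, 3.96%, 1.24% and 0.893% of the FPKM of 6 myosin heavy chains. The total includes embryonic Myh3 and neonatal Myh8, at 1252 and 2530 FPKM at E18.5, so this share does not compare slow with fast genes alone. At E18.5 Myh7 stood at 207 FPKM and fast Myh1, Myh2 and Myh4 at 18.9, 81.5 and 43.9. In PN14 replicate 1 Myh7 stood at 403 FPKM and those fast genes at 1238, 763 and 7179. Tropomyosin Tpm3 made up 3.66%, 4.79%, 1.37%, 1.72%, 0.450% and 0.481% of 3 tropomyosins, so its share was highest at PN2. Cardiac actin Actc1, the counterpart of Tnnt2 in the actins, made up 31.4%, 13.3%, 5.44%, 10.1%, 7.30% and 0.0385% of 2 striated actins, and so was nearly absent only in the adult, later than Tnnt2.

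Of 20 other thin filament genes, 9 were called from E18.5 to the adult, which is about the share of all genes, with 5 up and 4 down. Those that rose were Tmod4, the skeletal muscle tropomodulin (3.75, adjusted p = 0.00160 in edgeR), Nrap, Capza2, Capzb and Lmod1, and those that fell were Actc1, Tpm4, Tmod2 and Capza1. With library size alone 5 rose and 6 fell, and only Tmod4 and Nrap rose under both scalings. Of 18 regulators of contractile genes, 10 rose and 4 fell with TMM, above the 44.9% of all genes called. With library size alone 2 rose and 6 fell, below the 53.6% of all genes called. Sox6, a repressor of slow-fibre genes, rose under both scalings (2.47 with TMM, adjusted p = 0.00286), as did Eya1, a coactivator known from fast fibres. Prox1, known for a role in slow fibres, and Tead4 and Myog, factors of myogenic differentiation, fell under both, as did Gtf2ird1.

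The genes most like each troponin gene were found by Pearson's r of log2(FPKM + 0.1) over the 6 libraries, among 6918 genes with at least 10 FPKM somewhere. The libraries and their scaling are shared by all genes, so r is a description. Tnnt2 was nearest to Chrng, the fetal acetylcholine receptor gamma subunit (r = 0.9998), which stood at 83.6, 56.1, 0.89, 1.92, 0.60 and 0.13 FPKM, and next to Fndc4 and Mcrs1. Tnnt3 was nearest to Neurl1a, Aldh1a1 and Gstp2, Tnni2 to 2410127L17Rik, Cisd1 and Smco1, and Tnnc2 to Atl2, 2210408F21Rik and Cdnf, all with r of 0.998 or more. Tnnt1 was nearest to Lmcd1 (r = 0.996), Ccdc9 and Fhl1, Tnnc1 to Leng8 (r = 0.971), Ccdc9 and Atf3, and Tnni1 to Hes1 (r = 0.990), Rpl26 and Sertad1. Tnni3 was nearest to Exosc5, 1110001A16Rik and Smpx. Among the troponin genes themselves the fast trio had r of 0.993 to 0.996 with each other and the slow trio 0.942 to 0.971, and Tnnt2 had -0.987 to -0.995 with the fast genes.

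In the mm9 genome, 6 of the 8 genes lie as pairs of a troponin I and a troponin T gene, and only 1 pair joins genes of the same fibre type. Slow Tnni1 (chr1:137679642-137707566) and cardiac Tnnt2 (chr1:137737452-137748837), both on the plus strand, are 29885 bases apart with Lad1 between them, and both fell from E18.5 to the adult. Tnni2 (chr7:149627713-149630315) and Tnnt3 (chr7:149684741-149701914), both on the plus strand, are 54425 bases apart with Lsp1 between them, and both are fast genes. Tnnt1 (chr7:4456172-4467984) and Tnni3 (chr7:4469907-4475831), both on the minus strand, are 1922 bases apart with no annotated gene between, and in the adult stood at 209 and 0.71 FPKM. The genes in between were far below their neighbours: Lad1 was at 0.04 to 0.23 FPKM and Lsp1 at 16.8 to 31.8 FPKM. Tnnc1 (chr14:32021498-32024915, plus strand) and Tnnc2 (chr2:164602661-164605467, minus strand) stand alone.

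Promoter windows from RefSeq (GRCm38.p6), placed in mm9 by an exact match, were found for 6 of the 8 genes. The 250 bases before an annotated start are given for Tnnt2, the gene that fell most, and for Tnnc1, shared by slow muscle and heart. Tnnt2 has 2 such windows, of which the first is printed; the second, chr1:137733316-137733565, holds none of the motifs searched. Capitals mark CAGCTG, an E-box bound by myogenic factors, and CATTCC, the core bound by TEAD factors, searched on both strands. The first Tnnt2 window is chr1:137732661-137732910, plus strand, upstream of the GENCODE M1 start.
Tnnt2: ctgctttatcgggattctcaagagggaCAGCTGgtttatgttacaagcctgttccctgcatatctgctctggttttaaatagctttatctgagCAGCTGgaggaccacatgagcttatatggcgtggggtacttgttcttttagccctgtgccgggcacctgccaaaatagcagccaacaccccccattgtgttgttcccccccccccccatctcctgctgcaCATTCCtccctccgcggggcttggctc
The Tnnc1 window is chr14:32021248-32021497, plus strand, where the motif reads on the other strand.
Tnnc1: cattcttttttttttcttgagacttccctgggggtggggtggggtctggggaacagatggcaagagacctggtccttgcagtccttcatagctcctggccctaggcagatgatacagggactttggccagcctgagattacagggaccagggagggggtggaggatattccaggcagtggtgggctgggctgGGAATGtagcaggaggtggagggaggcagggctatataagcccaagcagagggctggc
CAGCTG occurs at -223 and -157 and CATTCC at -27 in the first Tnnt2 window, and CATTCC at -58 in that of Tnnc1. Of 32851 windows of this length, 13.0% hold CAGCTG and 12.6% hold CATTCC. The MEF2 and CArG motifs, in 2.92% and 1.47% of all windows, were found in none of the 8 windows of troponin genes, and CAGCTG was found also in both overlapping windows of Tnni1. No binding was measured in these libraries.

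The table also carries a trace of transcript length, since counts divided by FPKM and by the library total give the length that was used for a gene. For Tnnt3 this implied length was 1007 bases at E18.5 and 1009 at PN2, then 979 and 985 for the PN14 pair, 980 at PN28 and 984 in the adult. Relative to E18.5 the change was -2.78% and -2.22% for the PN14 pair, -2.64% at PN28 and -2.27% in adult muscle, and the 4 later libraries did not overlap the 2 earlier ones. Among 7714 genes with at least 1000 counts in every library, the middle 90% changed by -0.41% to 0.55% in the adult, and Tnnt3 lay at percentile 1.94. The lengths of Tnnt1, Tnni1, Tnni2, Tnnc1 and Tnnc2 stayed within the middle 90% in every library. Tnnt2 went from 1150 to 1138 bases, on 497 counts in the adult.

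Fast troponin T is known for many spliced forms, and the annotated coding exons that some complete Tnnt3 transcripts of GENCODE M1 leave out are given for scale. There are 7 of them, of 12 to 41 bases, on the plus strand of mm9, in 11 complete transcripts of 955 to 1079 bases.
chr7:149688645-149688662: aacaatacgaagaggaag
chr7:149690155-149690169: aagtccaggaggaag
chr7:149691193-149691204: cccccgaaccag
chr7:149691421-149691435: aggaagtccaagaag
chr7:149693655-149693693: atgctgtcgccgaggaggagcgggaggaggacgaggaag
chr7:149699570-149699610: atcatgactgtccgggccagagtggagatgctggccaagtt
chr7:149700231-149700271: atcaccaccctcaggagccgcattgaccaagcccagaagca
The last pair, of 41 bases each, were present in 3 and 8 of the 11 transcripts. The paper lists a Tnnt3 exon of 41 bases as mutually exclusive, and an exchange of exons of equal length leaves the length unchanged. The implied length minus that at PN2 was -30.1 and -24.4 bases for the PN14 pair, -28.7 at PN28 and -24.9 in adult muscle, a size that is of the order of these exons. Splicing was not analysed here, and whether exons or transcript ends changed, or which, cannot be read from a length.

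**Figure D5:**
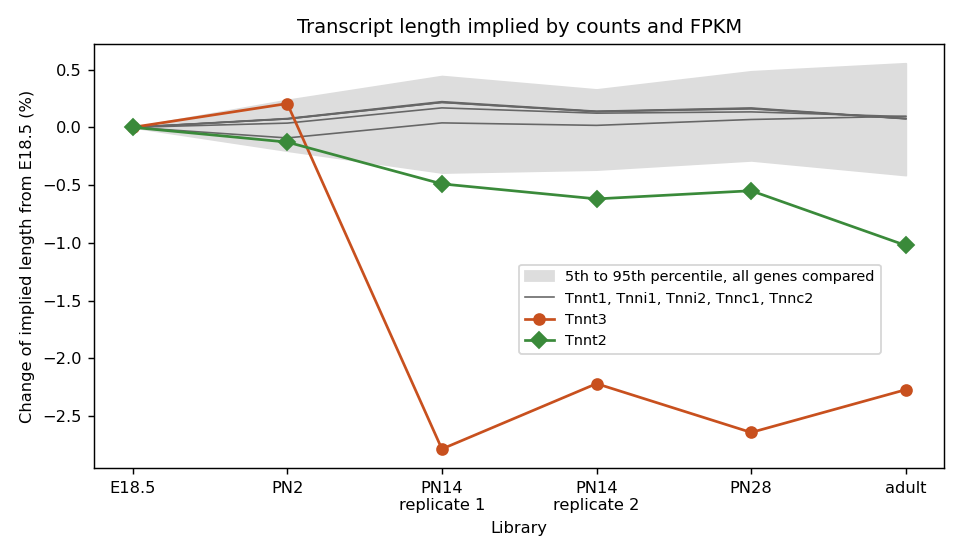
Change of the implied transcript length from E18.5 (percent) in each library for Tnnt3 (circles), Tnnt2 (diamonds) and 5 other troponin genes (grey lines), with the 5th to 95th percentile of 7714 genes as a band; Tnni3 is left out for its low counts. From PN14 on, Tnnt3 changes by -2.22% to -2.78% and Tnnt2 by -0.49% to -1.02%, both below the band, while the 5 other genes stay inside it.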

How the data were processed

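RNA-seq of 6 gastrocnemius libraries was analysed from the gene table. Its expected counts come from the authors: TopHat 2.0.5 placed paired-end reads on mm9, and RSEM assigned fragments to genes of RefSeq. The FPKM values in the same table were deposited by the authors and carry no scaling between libraries beyond library size. Pooled RNA was used at E18.5 and PN2.

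Expected counts were rounded and fitted with edgeR 4.0.16 in R 4.3.3 (TMM, filterByExpr, quasi-likelihood test, all libraries in 1 fit with the 5 stages as groups). The filter kept 16882 genes. Residual degrees of freedom came to 1, given by PN14, beside a prior of 4.86 and a common biological coefficient of variation of 0.188, so the other stages are assumed to vary as PN14 does. Whether the PN14 mice came from 1 litter is not stated, so their spread may understate that between animals. A standard error is the log2 fold change divided by the square root of the F statistic. Scripts were tested on simulated data. Shares and ratios use FPKM.

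The genes named are the 8 troponin genes, those of the lists, the 3 nearest to each in pattern and the genes beside them on the chromosome. The members and the lists were chosen with earlier results of these data known. The alternatives were library size alone, DESeq2 size factors, DESeq2 1.42.0, edgeR's exact test, no filter or at least 1 CPM, expected counts in shares, other settings for the nearest genes, and leaving out each PN14 library.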

Additional observations from a re-analysis of the deposited data

How the results depend on the processing

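All 40 log2 fold changes of troponin genes (8 genes in 5 comparisons) kept their direction and side of the threshold with DESeq2 size factors, and 37 did with no filter on low counts. From PN2 to PN14 the number called was 1 with TMM, 4 with library size alone, 4 with DESeq2's Wald test (Tnnt2 and the 3 fast genes in both) and 5 with edgeR's exact test, which added Tnni3; the shares of all genes called were 23%, 34.5%, 19.7% and 27.2%. From PN14 to PN28 it was 0 with TMM, 2 with library size alone and with DESeq2 (Tnni1 and Tnnc1, both down) and 1 with the exact test. From PN28 to the adult it was 0 with TMM and 1 (Tnnt2) with library size alone, DESeq2, the exact test and no filter. From E18.5 to the adult it was 3 with TMM, 7 with library size alone, 5 with DESeq2 and with no filter, and 6 with the exact test, where the shares of all genes called were 44.9%, 53.6%, 38.5%, 39.1% and 48% (TMM, library size alone, DESeq2, no filter, exact test). From E18.5 to PN2 it was 0 under each. The cause was not tested. The estimate of Tnni1 from PN2 to PN14, 0.23, turned to -0.45 with library size alone, and leaving out either PN14 library gave -0.0395 (without replicate 1) to 0.45 (without replicate 2), so its direction in that interval depends on the setting.

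Taken from expected counts in place of FPKM, the slow share in the adult minus that at E18.5 was -11.1 percentage points for troponin T, -27.5 for troponin I and -8.59 for troponin C. Counts are not divided by length, and the implied length at E18.5 was 1032 bases for Tnni1 and 612 for Tnni2. With a pseudocount of 1, 0 of the 3 genes nearest to Tnnt2 remained, and with a floor of 1 FPKM, 1 of 3 remained for Tnnt2 and 1 of 3 for Tnni1. Calls among all genes from PN2 to PN14 were 1988 up and 1896 down with TMM but 854 up and 4971 down with library size alone, and from E18.5 to the adult 3606 up and 3978 down against 1347 up and 7700 down. Calls from E18.5 to PN2 numbered 5 with TMM and 325 with the exact test, from PN14 to PN28 3 and 223, and from PN28 to the adult 88 and 1103, or 13 with a mean of at least 1 CPM. Without PN14 replicate 1 or 2 there was no residual degree of freedom, so those fits gave values with no test. No paired analysis was possible because only PN14 has more than 1 library. With 4 stages of 1 library each, the tests cannot separate a stage from its library.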
